A study of Arabidopsis thaliana with 34 samples.

Results

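The 42 nuclear genes described here encode the light-harvesting antenna proteins and the subunits of photosystem I and photosystem II in Arabidopsis thaliana. They were chosen by name, as the loci of LHCA1 to LHCA6, of the LHCB1 to LHCB6 families, and of the nuclear PSA and PSB subunits. The rule uses names and no values, but it was set with earlier results of these data known. All 42 had at least 1 probe row, and together they had 68 of the 34558 rows of the table, which held 24519 named genes in all. By role they were 6 antenna genes of photosystem I, 9 major and 5 minor antenna genes of photosystem II, 12 photosystem I subunits, 6 subunits around the oxygen-evolving site and 4 other photosystem II subunits.

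Photosynthesis starts when antenna proteins, which bind chlorophyll, pass the energy of absorbed light to the reaction centres of the photosystems. Photosystem II takes electrons from water, with release of oxygen, and photosystem I passes them on to ferredoxin. The chlorophyll-binding reaction-centre proteins are encoded in the chloroplast, whereas the antenna and many of the smaller subunits are encoded in the nucleus, imported, and among the most strongly expressed genes of a green shoot.

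The plants were wild type (WT) of the Landsberg background and 2 transgenic lines that make Vitreoscilla haemoglobin (VHb), an oxygen-binding protein of a bacterium. Line C13 makes it in the cytoplasm and line Mt62 in mitochondria, and each was represented by a single line. Shoots of 16-day-old plants were taken from agar plates with 1% sucrose under 10 h of light and 14 h of dark. Treatments were 4% oxygen (hypoxia), in bags with an oxygen-consuming sachet, or 500 µM DETA, a donor of nitric oxide, each for 2 or 24 h. Untreated controls of each line were taken at 0, 2 and 24 h. Per the labels' protocols, the plants stayed in the growth chamber and could photosynthesise during treatment. The labels do not name the promoter that drives VHb.

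RNA was labelled with 3 dyes and hybridised to arrays, which gave 21 groups, of which 18 had 4 channels and 3 had 3 channels (WT DETA 2 h, Mt62 control 0 h and C13 hypoxia 2 h). The authors' deposited table holds no value per channel. Its 34 columns are log fold changes between groups, first minus second, taken here as log2, and cells whose p exceeded 0.01 in the authors' test are empty. A gene with such a value is called listed below, and a gene with several probe rows takes the mean of its listed rows, provided these have 1 sign. All fold changes below are values of the authors' deposited table or means of them, so no standard deviation could be computed. Instead, "SE at most" gives an upper bound for the standard error, derived from the smallest value listed for the row. The number of channels limits the precision, and p-values of the authors' test measure the spread between these channels. In whole shoots, fewer cells that express a gene and less RNA per cell cannot be told apart. With no expression levels in the table, the shoot identity could not be checked by level. Of 10 root marker genes 8 were measured, and in hypoxia of 24 h against its 24 h control 2 of these were listed: PYK10 lower in WT and Mt62, and AKT1 higher in WT and C13. In these columns 30.9% to 35.8% of all genes were listed, and the count cannot show whether root tissue was present. Other comparisons listed root markers too. Against the 0 h control PYK10 was lower in all 3 lines at 24 h of hypoxia, and AKT1 higher in all 3 at 2 h of DETA.

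After 24 h of hypoxia a majority of the antenna and photosystem genes fell in every line. Against the 24 h control of the same line, 25 of 42 were lower in WT, where 17.0% of all genes were listed lower. In C13 31 of 42 were lower, beside 17.1% of all genes, and in Mt62 22 of 42, beside 15.8%. The only member listed higher was LHCB4.3 in WT, where 18.8% of all genes were listed higher. The same 22 genes were lower in all 3 lines, and 11.0% of all genes were. The median of the members listed lower was -1.80 in WT, -1.89 in C13 and -1.49 in Mt62, against -0.83, -0.79 and -0.80 for all genes listed lower. These medians cover listed values alone, and the smallest listed values of member rows were larger than those of other rows.

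**Figure D1:**
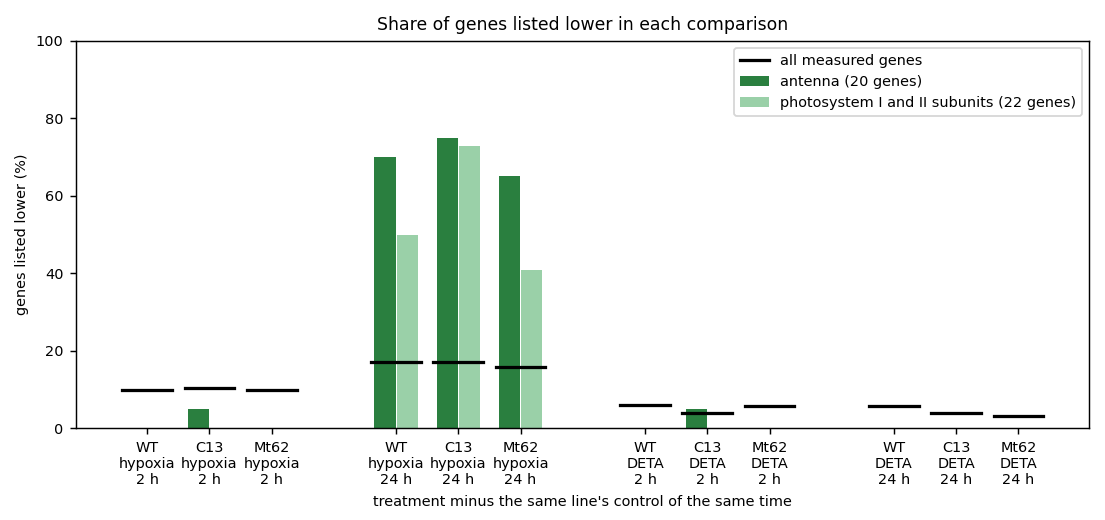
Percentage of genes listed lower (y axis) for each treatment, line and time against the matching untreated control (x axis), for 20 antenna genes (dark bars), 22 photosystem subunit genes (light bars) and all 24519 genes (black lines). The bars stand clear of the lines at 24 h of hypoxia in each line, and at most 1 antenna gene is listed lower in the other comparisons.

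The antenna of photosystem I is a belt of LHCA1 to LHCA4, while LHCA5 and LHCA6 are minor forms that join the photosystem to the chloroplast NDH complex. In each line 5 of the 6 genes were lower, and LHCA3 was not listed. For 1 of the 2 rows of LHCA3 a value as small as 0.39 was listed elsewhere, in C13 under DETA of 24 h. That row was matched to LHCA3 by symbol and not by accession. The other row was listed in no column, so that the table gives no bound for it. LHCA2 (AT3G61470) was listed at -1.80 in WT, -2.07 in C13 and -1.32 in Mt62 (SE at most 0.63), a mean of -1.73, or 3.32-fold lower. LHCA4 (AT3G47470) was at -1.55, -1.97 and -1.24 in the same order of lines. LHCA1 (AT3G54890) was at -1.48, -1.74 and -1.20, and 1 of its 3 rows was listed in WT. LHCA6 (AT1G19150) was at -1.42, -1.48 and -1.23. The smallest listed change was that of LHCA5 (AT1G45474), with -0.70 in WT, -0.49 in C13 and -0.49 in Mt62 (SE at most 0.19), a 1.47-fold decrease on average.

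LHCB1, LHCB2 and LHCB3 form the trimers of the major antenna of photosystem II, the bulk of the leaf's light-harvesting protein. This group held both the largest decreases and 3 of the 6 members that were listed in no column. LHCB2.3 (AT3G27690) was listed at -3.15 in WT, -3.26 in C13 and -2.62 in Mt62 (SE at most 0.69). LHCB2.2 (AT2G05070) was listed at -2.51, -3.22 and -2.50, with all 3 of its rows listed in every line. Its 3 rows differed, with means over the lines from -3.18 to -2.31. LHCB2.1 (AT2G05100), which lies next to LHCB2.2 in the TAIR10.1 annotation, was at -1.34 in WT, -1.47 in C13 and -1.46 in Mt62. LHCB3 (AT5G54270) was at -2.02, -2.57 and -1.74, and LHCB1.4 (AT2G34430) at -2.22, -2.39 and -1.65. Of the other 4 LHCB1 genes, LHCB1.1 (AT1G29920) was listed at -1.15 in C13 alone, in 1 of its 2 rows. LHCB1.2, LHCB1.3 and LHCB1.5 were listed in none of the 34 columns. LHCB1.1 has LHCB1.2 and LHCB1.3 as its neighbours in TAIR10.1, and LHCB1.5 is next to LHCB1.4. These copies are close to identical in sequence, as are LHCB2.1 and LHCB2.2, so that a probe named for one may also measure another, and their separate values are uncertain.

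The minor antenna proteins LHCB4, LHCB5 and LHCB6 are monomers that link the trimers to the photosystem II core. LHCB4.2 (AT3G08940) was at -2.08 in WT, -2.74 in C13 and -1.96 in Mt62 (SE at most 0.49), a 4.79-fold decrease on average. LHCB5 (AT4G10340) was at -2.23, -2.30 and -1.52, and LHCB6 (AT1G15820) at -2.14, -2.45 and -1.44. LHCB4.1 (AT5G01530) was lower in WT (-1.58) and C13 (-1.70) and not listed in Mt62. LHCB4.3 (AT2G40100), a diverged form of LHCB4, went the other way in WT at 0.48 (SE at most 0.18) and was not listed in C13 or Mt62.

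Of the 12 photosystem I subunits, 6 were lower in WT, 9 in C13 and 4 in Mt62. PSAD and PSAE sit on the stromal side, where ferredoxin docks. PSAD2 (AT1G03130) was at -2.37 in WT, -2.70 in C13 and -2.10 in Mt62 (SE at most 0.42), with row means over the lines from -2.84 to -1.65. PSAD1 (AT4G02770) was at -1.68, -1.89 and -1.58. On the lumenal side PSAN (AT5G64040), which takes part in the exchange with plastocyanin, was at -2.05, -2.27 and -1.84. PSAH2 (AT1G52230), at the side where the mobile antenna docks, was at -1.89, -2.15 and -2.23. PSAL and PSAO, at the same side of the complex, were lower in WT (-1.51 and -1.61) and C13 (-1.38 and -1.89) and not listed in Mt62. PSAE1 (-1.68), PSAF (-1.76) and PSAH1 (-1.03) were listed in C13 alone. PSAG, PSAK and PSAE2 were listed in no line. PSAD1 and PSAD2, PSAE1 and PSAE2, and PSAH1 and PSAH2 are pairs of close copies, and the split between the members of a pair is uncertain for the same reason as above.

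PSBO, PSBP and PSBQ shield the manganese cluster where water is split, and PSBR stands beside them. PSBO2 (AT3G50820) was at -2.58 in WT, -2.13 in C13 and -2.26 in Mt62 (SE at most 0.41), a 5.01-fold decrease on average. PSBP1 (AT1G06680) was at -1.89, -1.98 and -1.21, PSBQ2 (AT4G05180) at -1.78, -2.09 and -1.24, and PSBQ1 (AT4G21280) at -1.47, -1.58 and -1.04. PSBO1 (AT5G66570), a close copy of PSBO2, was listed in C13 alone (-1.56), and PSBR was listed nowhere in the table. Of the remaining photosystem II subunits, PSBW (AT2G30570) was at -1.42, -1.51 and -1.06. PSBX (AT2G06520) was at -1.66 in C13 alone, PSBY was not listed, and neither was PSBS, the protein that senses lumen pH for the dissipation of excess light energy.

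**Figure D2:**
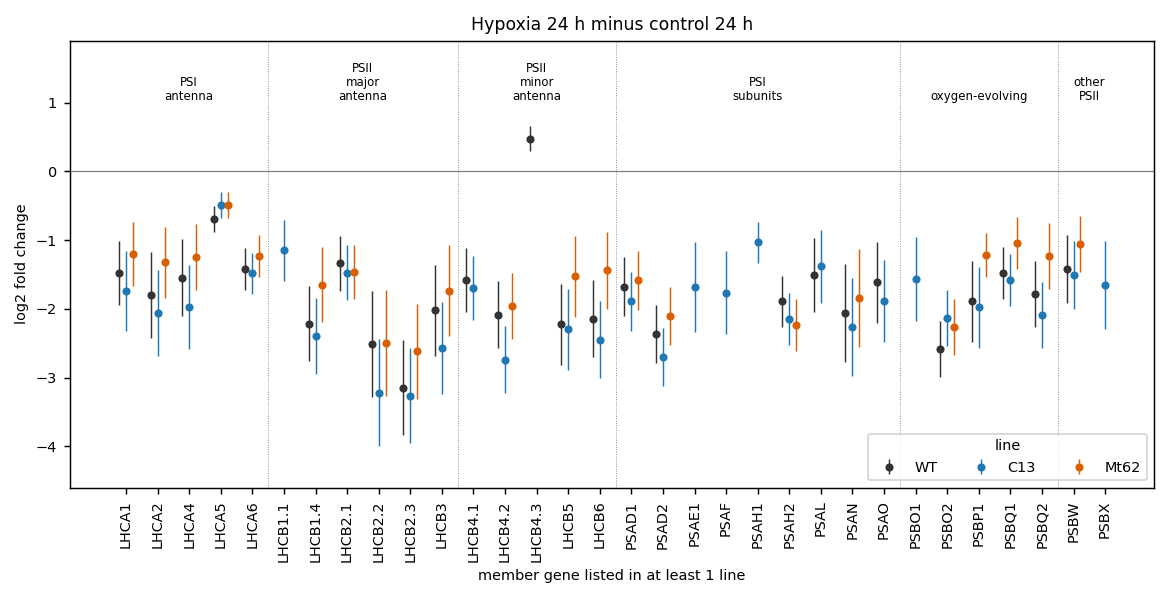
Log2 fold change (y axis) after 24 h of hypoxia against the 24 h control, for each member listed in at least 1 line (x axis, grouped by role). Points are WT (black), C13 (blue) and Mt62 (orange), and bars are the upper bound of the standard error. Apart from LHCB4.3 in WT every point lies below 0, from -0.49 for LHCA5 to -3.26 for LHCB2.3.

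Antenna and photosystem subunits overlapped in the size of their decrease. Of the 20 antenna genes 14 were lower in WT, 15 in C13 and 13 in Mt62, with medians of the listed values of -1.91, -2.07 and -1.46. Of the 22 photosystem subunits 11, 16 and 9 were lower, with medians of -1.78, -1.83 and -1.58. The difference between the antenna and the subunits was not tested. In all 3 lines 13 of 20 antenna genes were lower, against 4 of 12 photosystem I subunits, 4 of 6 oxygen-evolving subunits and 1 of 4 other photosystem II subunits. Ordered by their mean over the lines, the 22 genes ran from LHCB2.3 (-3.01, 8.06-fold lower, SE at most 0.40) through LHCB2.2 (-2.74), PSAD2 (-2.39), PSBO2 (-2.32) and LHCB4.2 (-2.26) to PSBW (-1.33) and LHCA5 (-0.56). Of the 21 steps between neighbours in this order, 1 was larger than the bound of its standard error, that from PSBW to LHCA5. The other neighbours in the order did not differ beyond their error bounds.

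The decrease was also seen against the plants at the start of the experiment. Hypoxia of 24 h against the 0 h control listed 23 members lower in WT (17.9% of all genes), 27 in C13 (18.0%) and 13 in Mt62 (16.1%), and none higher. These comparisons share the hypoxic plants with those above. All 23 in WT, 26 of the 27 in C13 and 12 of the 13 in Mt62 were also lower against the 24 h control. The exceptions were PSBY in C13 (-1.12) and LHCB4.3 in Mt62 (-0.72). In Mt62, 10 genes that were lower against the 24 h control were not listed against the 0 h control, among them LHCA1, LHCA2, LHCA4, LHCB5 and LHCB6. The lowest value among all members and columns was LHCB2.3 in C13 against the 0 h control, at -3.84, beside -3.81 in WT and -3.41 in Mt62. PSBO2 was at -2.73 in WT, -2.54 in C13 and -2.47 in Mt62, and PSAH2 at -2.07, -2.30 and -2.26.

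**Figure D3:**
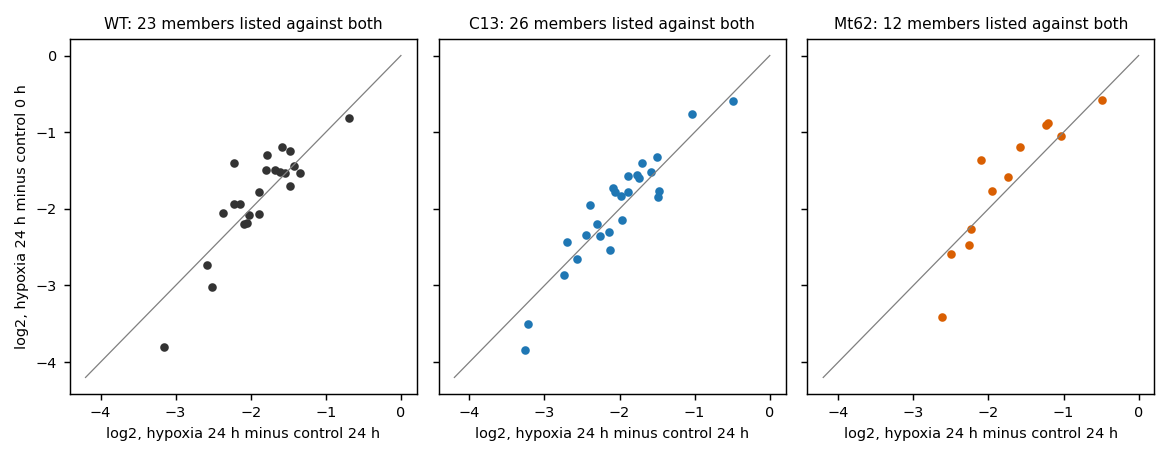
Log2 fold change of 24 h of hypoxia against the 0 h control (y axis) and against the 24 h control (x axis), 1 point per member listed in both, for WT (23 genes), C13 (26) and Mt62 (12). The grey line marks equal values; the points lie near it, with LHCB2.3 at the lower left in each panel.

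The columns add up around closed loops of comparisons to within 2e-09, so that differences that no column gives could be computed. The untreated plants of 24 h minus those of 0 h could be recovered for 23 members in WT, 27 in C13 and 12 in Mt62. The median of these differences was 0.02 in WT (range -0.66 to 0.81), 0.07 in C13 (-0.58 to 0.44) and -0.02 in Mt62 (-0.79 to 0.74). With the error bound as standard error, a t distribution and Benjamini-Hochberg adjustment over all rows, 0 members were called, and 0 had an unadjusted p under 0.05. The same test called 711 of 8574 recovered rows in WT, 456 of 8732 in C13 and 426 of 7353 in Mt62. These were 2.06%, 1.32% and 1.23% of all rows, most of which could not be recovered. The p is an upper limit, and the bound of the standard deviation had a median of 0.76 for listed member rows and 0.26 for all listed rows. The absence of calls therefore does not show that the members were unchanged in untreated plants. Since only members listed against both controls could be recovered, genes that changed in 1 of the 2 comparisons are missing from these figures.

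At 2 h of hypoxia the antenna and photosystem genes were almost absent from the lists of the same-time comparison. LHCB4.3 in C13, at -1.05 (SE at most 0.20), was the only value listed among 126, 42 in each line, whereas 9.92% of all genes were listed lower in WT, 10.4% in C13 and 10.0% in Mt62. In either direction 18.2% to 20.1% of all genes were listed in these comparisons. Against the 0 h control more were listed: 3 lower in WT (9.89% of all genes), 8 in C13 (11.2%) and 3 in Mt62 (9.44%). LHCB2.3 was at -1.79 in WT, -3.01 in C13 and -2.74 in Mt62 (SE at most 0.75), LHCB4.2 at -1.09, -1.91 and -1.60, and LHCB4.3 at -0.86, -0.66 and -0.93. In C13 the list also held LHCB2.2 (-2.06, 1 of 3 rows), PSAD2 (-1.37), PSBO2 (-1.13), PSAH2 (-1.05) and LHCA6 (-0.84). PSAG, whose protein binds at the antenna side of photosystem I, was higher in Mt62 (0.80, SE at most 0.31), where 9.16% of all genes were listed higher. In a comparison with the 0 h control the treatment and the hours since the start cannot be told apart. The 2 h control minus the 0 h control could be recovered for 1 member, LHCB4.3 in C13 at 0.39 (unadjusted p at most 0.0377 from the bound, not called after adjustment). In that difference 478 of 4673 recovered rows were called, or 1.38% of all rows.

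Between 2 h and 24 h of hypoxia the values could be compared for few members. In WT the difference, 24 h minus 2 h, was -2.02 for LHCB2.3 (SE at most 0.69) and -1.30 for LHCB4.2 (SE at most 0.42). In C13 all 7 recovered members were lower at 24 h, with a median of -1.07, from -0.83 for LHCB2.3 to -1.76 for LHCB2.2. In Mt62 LHCB2.3 differed by -0.67, LHCB4.2 by -0.39 and LHCB4.3 by 0.20. After adjustment over all rows 0 of these differences were called. Of the recovered rows 919 of 4335 were called in WT, 660 of 5444 in C13 and 494 of 4064 in Mt62 (2.66%, 1.91% and 1.43% of all rows). At an unadjusted p under 0.05, from the error bound, 2 of 2 recovered members passed in WT, 6 of 7 in C13 and 0 of 3 in Mt62. Of all recovered rows 1834 of 4335 passed in WT, 1846 of 5444 in C13 and 1395 of 4064 in Mt62.

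**Figure D4:**
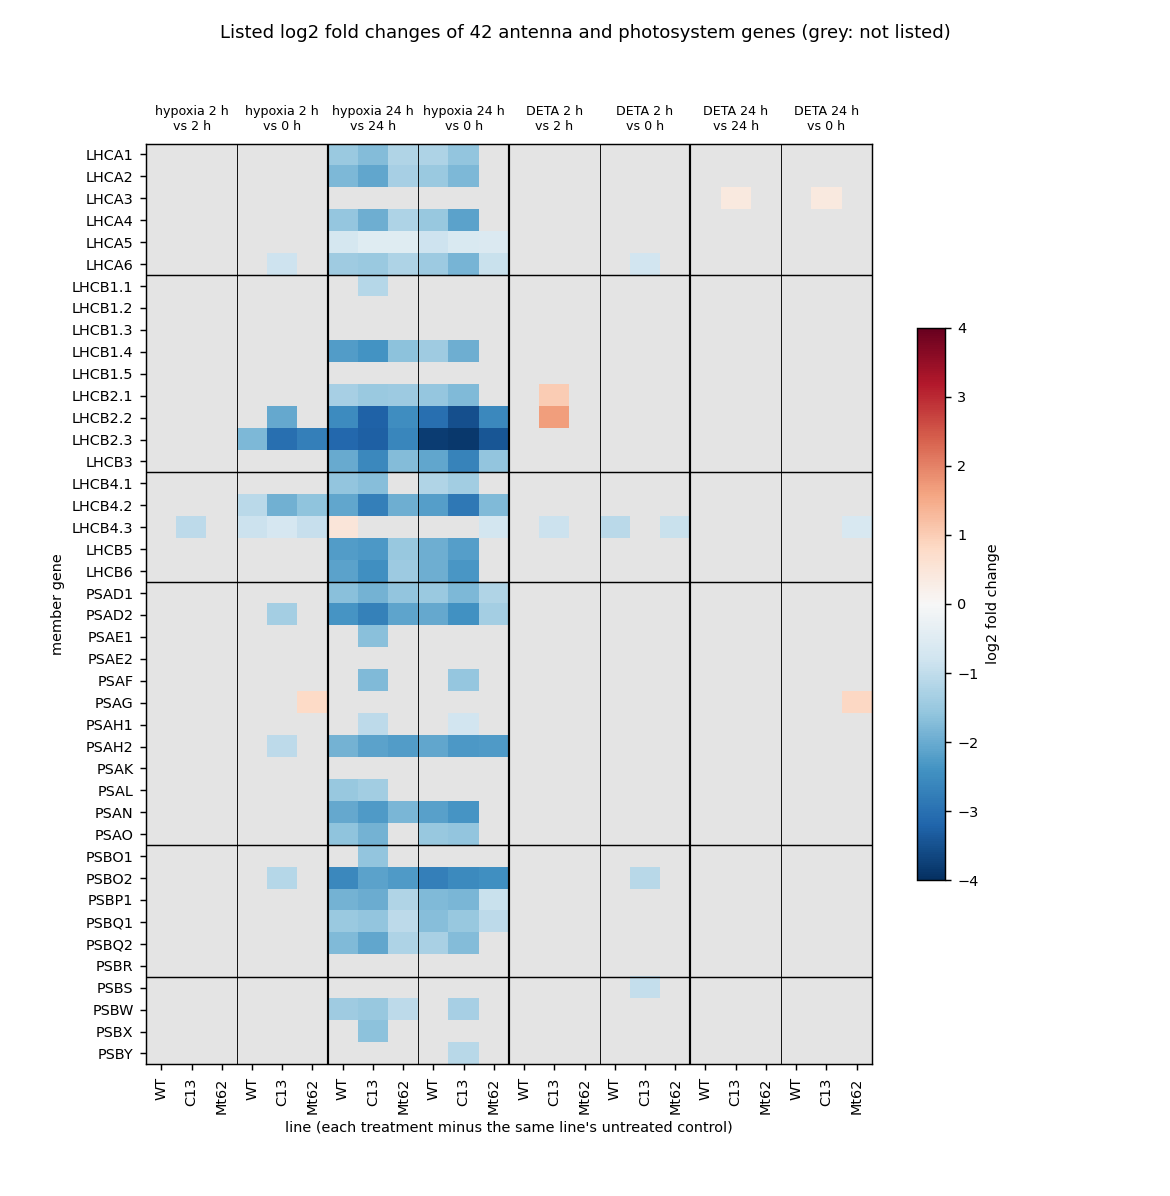
Listed log2 fold changes (colour, blue lower and red higher) of the 42 members (rows, grouped by role) in the 24 comparisons of a treatment with an untreated control (columns, WT, C13 and Mt62 in each block). Grey cells are not listed; the blue block is hypoxia of 24 h against the 24 h and the 0 h control, and the few values in the other blocks belong to LHCB4.3 and to other members such as LHCB2.3, LHCB4.2, LHCA6, PSBO2, LHCA3 and PSAG.

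DETA left few antenna or photosystem genes listed. At 2 h against the 2 h control, C13 alone had listed members. LHCB2.1 (1.02, SE at most 0.40) and LHCB2.2 (1.66, SE at most 0.64, 1 of 3 rows) were higher, where 4.81% of all genes were listed higher, and LHCB4.3 was lower (-0.85, SE at most 0.18), where 3.85% were listed lower. In WT and Mt62 0 of 42 members were listed, where 5.93% and 5.69% of all genes were listed lower. In either direction 8.66% to 11.7% of all genes were listed, depending on the line. At 24 h against the 24 h control, 1 value of 126 was listed, LHCA3 in C13 at 0.39 (SE at most 0.15, 1 of its 2 rows), where 3.99% of all genes were listed higher. No member was listed lower at that time, while 5.79% of all genes were in WT, 3.89% in C13 and 3.32% in Mt62. The share of all genes listed in either direction was 6.04% to 11.1%.

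Against the 0 h control, DETA of 2 h listed LHCB4.3 lower in WT (-1.07, SE at most 0.20) and in Mt62 (-0.88), where 7.66% and 7.39% of all genes were listed lower. In C13, with 6.58% of all genes, the members listed lower were PSBO2 (-1.12), PSBS (-0.94) and LHCA6 (-0.77). The LHCB4.3 value of C13 in that comparison, which the authors' deposited table leaves empty, could be computed from other columns as -0.46. DETA of 24 h against the 0 h control listed LHCA3 higher in C13 (0.39, with 1.52% of all genes) and PSAG higher in Mt62 (0.81, with 1.84%). In Mt62 LHCB4.3 was lower (-0.65, with 1.59%), and 0 members were lower in WT and C13, where 1.42% and 1.53% of all genes were. PSAG in Mt62 was thus listed against the 0 h control under both agents, in 2 h of hypoxia and 24 h of DETA, and the 2 comparisons share that control.

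LHCB4.3 was listed in more columns than any other minor antenna gene. It was listed in 10 columns, under both agents, and LHCB4.1 and LHCB4.2 were listed under hypoxia alone. Its listed values lay between -1.07 and 0.48. The smallest size listed was 0.48 for its row, 1.19 for LHCB4.1 and 1.09 for LHCB4.2. The DETA values of LHCB4.3 were smaller than any value listed for those 2 genes. Whether LHCB4.1 and LHCB4.2 changed as much under DETA is therefore not known. In 2 h of hypoxia and 2 h of DETA its values against the 0 h control were -0.86 and -1.07 in WT and -0.93 and -0.88 in Mt62. The difference of hypoxia minus DETA at 2 h was 0.21 in WT, -0.21 in C13 and -0.05 in Mt62 (SE at most 0.18 to 0.20), with 0 called after adjustment and 0 at an unadjusted p under 0.05. That test called 558 of 3091 recovered rows in WT, 538 of 3029 in C13 and 660 of 2998 in Mt62 (1.61%, 1.56% and 1.91% of all rows). In C13 the difference was also recovered for LHCA6 (-0.06) and PSBO2 (-0.01). At 24 h, hypoxia minus DETA was recovered for LHCB4.3 in Mt62 alone, at -0.07 (599 of 1398 recovered rows called, 1.73% of all rows). DETA of 24 h minus DETA of 2 h was 0.23 for the same gene and line (296 of 907 recovered rows called, 0.857% of all rows). Neither difference was called for LHCB4.3.

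No antenna or photosystem gene was listed in a comparison of a transgenic line with WT. In the 10 comparisons of C13 or Mt62 with WT, at 0 h and under each treatment and time, 0 of 420 member values were listed. The share of all genes listed was 2.78% for C13 and 0.775% for Mt62 at 0 h, 1.62% and 1.23% in hypoxia of 2 h, and 2.94% and 4.30% in hypoxia of 24 h. In DETA it was 2.61% and 1.32% at 2 h and 2.94% and 3.73% at 24 h. Values with p above 0.01 are empty in the authors' deposited table, so that a count at p under 0.05 could not be given. The smallest listed value of a row had a median of 1.40 for member rows, against 0.49 over all rows. This value grows with the size of a row's changes as well as with its error. Differences between lines could be missed for members, and whether more often than for other genes is not known.

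The decrease at 24 h of hypoxia, against the 24 h control, could be set against that of WT for 25 members in C13 and 22 in Mt62, on the same probe rows. In C13 the value was below that of WT for 22 of the 25, by a median of -0.18, with the extremes LHCB2.2 (-0.71) and PSBO2 (0.45). In Mt62 it was below that of WT for 2 of the 22, LHCB2.1 (-0.12) and PSAH2 (-0.34), with a median difference of 0.28 and the highest values for LHCB6 (0.70) and LHCB5 (0.70). Among all genes listed lower in both lines, 45.7% of 3361 were below WT in C13 and 41.8% of 3067 in Mt62. None of these differences was called for a member or for any other row (0% of all rows). At an unadjusted p under 0.05, from the error bound, 0 members passed, beside 306 of 8557 recovered rows in C13 and 349 of 7644 in Mt62. These p-values are upper limits, so that differences of the sizes given could be missed. Both lines were compared with the same WT plants, and the genes were measured on the same channels.

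The table bounds the error of the antenna and photosystem genes only coarsely. The smallest listed value of a row had a median of 1.40 over the 50 member rows listed at least once, and of 0.49 over the 21169 rows of all genes and unnamed probes. Among rows listed in 5 to 10 columns the medians were 1.31 and 0.50. The bound of the standard deviation had a median of 0.76 for member rows and 0.26 for all rows. The smallest listed value is an upper limit for what a row could show. It grows with the size of a row's changes as well as with its error, and these cannot be told apart here. A member that is not listed may have changed by an amount that would be listed for most other genes, but the table does not show this. For the 18 member rows and the 6 members that were never listed (LHCB1.2, LHCB1.3, LHCB1.5, PSAE2, PSAK and PSBR) the table gives no bound. Signal intensities are not in the table. The part of signal, saturation or the size of the changes in the wide bounds was not tested.

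The 6 relatives of the antenna proteins are a set that includes proteins of light stress. At 24 h of hypoxia, against the 24 h control, 3 rose in all lines and 1 fell in all lines. Of all genes 11.5% rose and 11.0% fell in all lines. ELIP1, an early light-induced protein, was higher in hypoxia of 24 h against the 24 h control, at 3.34 in WT, 2.86 in C13 and 2.95 in Mt62 (SE at most 0.37). ELIP2 was at 3.41, 3.25 and 3.35, and LHCB7, a rare antenna relative, at 1.73, 2.25 and 1.36. LIL3:1, which binds chlorophyll and helps its synthesis, was lower at -1.23, -0.84 and -1.11, and OHP1 and OHP2 were lower in WT alone (-0.62 and -0.58). At 2 h of hypoxia, when almost no member was listed, ELIP1 was higher than in the 2 h control at 2.33, 2.29 and 2.26, ELIP2 at 1.68, 1.96 and 1.63, and LHCB7 at 2.06, 2.13 and 1.92. Against the 0 h control, ELIP1 (1.18) and ELIP2 (1.67) were listed in C13 alone at that time, and LHCB7 was at 0.96 in WT, 0.94 in C13 and 1.08 in Mt62. The untreated plants themselves changed here: the 24 h control minus the 0 h control of WT was -1.93 for ELIP1 (adjusted p at most 3.21e-04, from the bound). Against the 0 h control ELIP1 in 24 h of hypoxia was at 1.41 in WT, 1.75 in C13 and 1.29 in Mt62. OHP1 was lower than in the 0 h control in all 3 lines, at -1.34, -1.07 and -1.56 in 24 h of hypoxia. In 2 h of hypoxia it was at -0.60, -0.63 and -0.90 against the same control. Against the 2 h control OHP1 (0.70) and OHP2 (0.65) were higher in Mt62 alone.

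Of 10 regulators of photosynthesis genes and plastid signals, 7 were lower at 24 h of hypoxia against the 24 h control in all 3 lines, beside 11.0% of all genes. GLK1 and GLK2, transcription factors that activate antenna and chlorophyll genes, were among them. GLK1 was at -1.98 in WT, -1.87 in C13 and -2.11 in Mt62 (SE at most 0.73), and GLK2 at -2.28, -1.86 and -2.38 (SE at most 0.45). The others were PIF5 (-2.03, -1.35 and -1.72), GUN1, of plastid-to-nucleus signalling (-1.65, -1.69 and -1.69), and PIF4, GNC and GUN4. HY5, a light-signalling factor, was higher in WT (3.32) and C13 (3.12) and not listed in Mt62, and the Mt62 value under 24 h of hypoxia was lower than that of WT at -2.08. At 2 h of hypoxia GLK1 was not listed in any line and GLK2 was listed higher in C13 alone (1.24), while HY5 was higher in all lines at 2.71, 3.15 and 3.06, and SIG5, a plastid sigma factor, at 3.00, 2.97 and 3.54. PIF4 was lower at -1.33, -0.56 and -1.58. Against the 0 h control, 2 h of hypoxia listed SIG5 in no line, while HY5 was at 2.37 in WT, 2.19 in C13 and 1.71 in Mt62 and PIF4 at -1.06, -1.25 and -1.26.

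**Figure D5:**
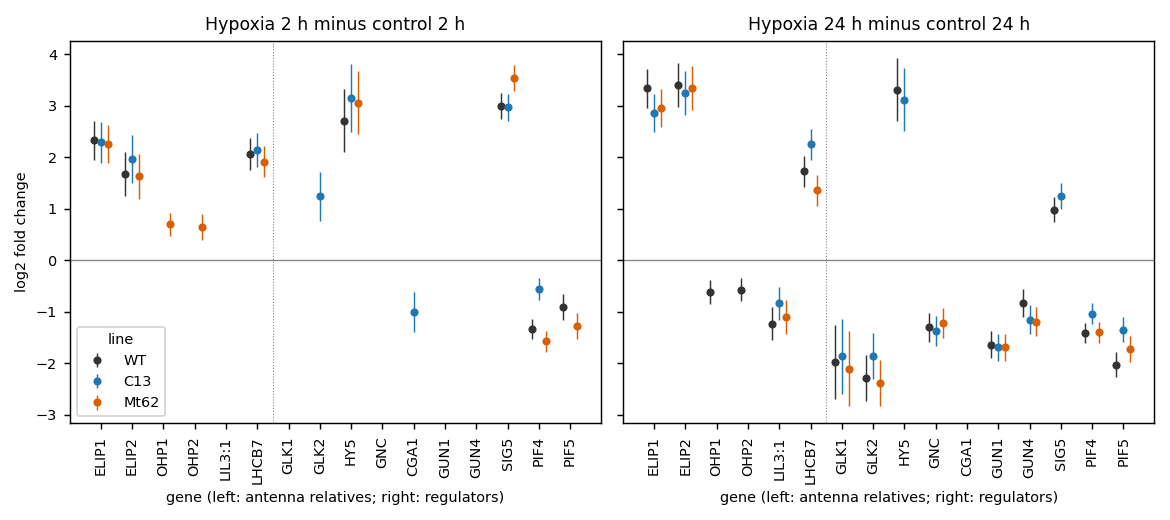
Log2 fold change (y axis) of 6 antenna relatives (left of the dotted line) and 10 regulators (right) after 2 h (left panel) and 24 h (right panel) of hypoxia against the control of the same time. Points are lines and bars the upper bound of the standard error; ELIP1, ELIP2 and LHCB7 are above 0 in both panels, and GLK1 and GLK2 are below 0 in all lines at 24 h.

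Of 11 measured genes of electron transport and ATP synthesis 8 were lower in WT, 6 in C13, 6 in Mt62 and 4 in all 3 lines at 24 h of hypoxia against the 24 h control. Of all genes 17.0%, 17.1% and 15.8% were lower in the same order of lines, and 11.0% in all 3 lines, which also stands beside the counts for the next 2 groups. ATPD, a subunit of the chloroplast ATP synthase, was at -2.21 in WT, -2.77 in C13 and -1.99 in Mt62 (SE at most 0.46). PETE1, a plastocyanin, was at -1.81, -2.25 and -1.82. At 2 h of hypoxia, against the 2 h control, PETE1 was the 1 gene of the 11 listed lower (-0.98, -1.07 and -1.04). At that time STN7 was higher in all 3 lines (1.07, 0.67 and 0.51), PGR5 in WT (0.75) and Mt62 (0.77), and FD1 in Mt62 (1.25). Of all genes 6.10% were lower and 5.40% higher in all 3 lines at 2 h. At 24 h FNR1, which passes electrons from ferredoxin to NADP, was at -1.24, -1.02 and -1.01. Of 12 measured Calvin cycle genes 4 were lower in all lines, PRK at -1.47, -1.61 and -1.08, GAPA-2 at -1.61, -2.36 and -1.28, TKL1 at -1.09, -1.11 and -1.17, and PGK1. RBCS1A, a small subunit of Rubisco, was not listed in any of the 34 columns. Of 6 measured genes of chlorophyll loss, NYC1, PAO and NAC092 were lower in all lines, with NAC092, a senescence regulator, at -1.69, -2.05 and -1.27, and none was listed higher.

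Under DETA, against the control of the same time, 0 of these relatives and regulators were listed in all 3 lines. At 2 h 1.86% of all genes were lower and 2.47% higher in all 3 lines, and at 24 h 1.66% and 1.02%. At 2 h PIF4 was lower in WT (-0.67) and Mt62 (-0.66), and GUN4 higher in C13 (0.80) and Mt62 (0.72). At 24 h PIF4 was lower in WT (-0.57) and Mt62 (-0.79). SIG5 was higher in WT (0.91) and C13 (0.79), and OHP1 in WT (0.79) and Mt62 (0.62). Among genes listed in 1 line, ELIP1 (1.23) and ELIP2 (1.26) were higher in WT at 24 h. GLK1 and GLK2 were not listed at either time in those comparisons. Against the 0 h control, DETA of 2 h listed SIG5 lower at -2.28 in WT, -2.48 in C13 and -2.70 in Mt62, ELIP1 at -1.89, -1.09 and -1.69, and LHCB7 at -1.07, -1.07 and -0.85. OHP1 was lower at -0.82, -0.72 and -0.97 and GNC at -0.90, -0.83 and -0.86, where 3.97% of all genes were lower in all 3 lines. GLK2 was lower in C13 alone (-1.30), and GLK1 was not listed. In that comparison the effect of the hours since the start cannot be told apart from that of DETA.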

How the data were processed

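The deposited values are differences of log expression between groups, made by the authors from Agilent arrays (3 dyes, 27 fields, 7 slides, 81 channels) by quantile normalization, batch correction and an empirical Bayes test, per the labels' design text, and taken here as log2, since no base is stated. Whether p was adjusted for multiple testing is not stated. Probe rows were named by accession (24536) or symbol (1794) through the probe table and TAIR10.1 names, or as given (18). Of the 68 member rows 65 matched by accession and 3 by symbol. Of 42 members 18 had more than 1 row. For differences between columns, the smallest listed value of a row over the square root of summed reciprocal channel numbers and 2.58 bounded its standard deviation, and p came from t with 60 degrees of freedom, adjusted by Benjamini-Hochberg at 0.05 over all rows. Rows with no recoverable difference stayed in the adjustment as not called and are counted in the shares of all rows. The computation was tested on simulated data. Members and lists were chosen with earlier results of these data known. Genes are named by a rule: per role and treatment up to 4 members with the largest mean among those listed in all 3 lines, members against the main direction, members of counts of 5 or fewer, up to 3 of each other list, and GLK1, GLK2, ELIP1 and ELIP2. Others named, such as HY5 in 2 lines, OHP1, OHP2, LIL3:1, GUN1 and RBCS1A, were chosen after their values were seen. Python 3.11.15, pandas 2.3.3, numpy 2.4.6, scipy 1.17.1 and matplotlib 3.10.9 were used. Alternatives were stricter calls, other naming, the 0 h control, other channel numbers and a t critical value.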

Additional observations from a re-analysis of the deposited data

How the results depend on the processing

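At 24 h of hypoxia 21, 25 and 17 members were lower in WT, C13 and Mt62 when all rows of a gene had to be listed. At a size of at least 1 these counts were 24, 30 and 21, and with p adjusted over all rows they were the main counts. Stricter calls can remove members but cannot change a sign. With 30.9% to 35.8% of all genes listed in these columns, the adjustment could hardly remove any. With the 0 h control the count in Mt62 fell to 13, and LHCB4.3 in WT was no longer higher (0). The small counts moved. With the 0 h control in place of the same-time control, members lower at 2 h of hypoxia were 3, 8 and 3 in WT, C13 and Mt62, with 1 higher in Mt62. For DETA of 2 h they were 1, 3 and 1, with 0 higher in C13, and for DETA of 24 h Mt62 had 1 lower and 1 higher. Adjusted over all rows, hypoxia of 2 h against 0 h kept 1 in WT, 5 in C13 and 0 higher in Mt62, and 0 remained of the members listed lower in DETA of 2 h against 0 h in C13, higher in DETA of 2 h against 2 h in C13, and at 24 h of DETA against either control in C13 and Mt62. At a size of at least 1, PSBO2 was the 1 member lower in C13 for DETA of 2 h against 0 h, and 0 passed among those lower in Mt62 in that comparison, lower in C13 against the 2 h control, at 24 h of DETA, higher in Mt62 at 2 h of hypoxia, and higher in WT at 24 h of hypoxia. With all rows listed, LHCB2.1 was the 1 member higher in C13 for DETA of 2 h, and LHCA3 (0) was lost, as it was when rows were named by accession only. Other channel numbers and the t critical value moved no count, and the largest row in place of the mean changed none of 39 values in sign. In each case the alternative's own construction sets the count. No paired analysis was possible because the columns are comparisons between groups and carry no replicate number, and for the same reason no replicate could be left out. Signal over background is not in the table, and the cause of the wide bounds of the members was not tested.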
